A study of Mus musculus and Mus musculus
Rattus norvegicus with 30 samples.

Results

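The 9 genes of the mouse Hoxd cluster, Hoxd1, Hoxd3, Hoxd4, Hoxd8, Hoxd9, Hoxd10, Hoxd11, Hoxd12 and Hoxd13, were followed through every RNA-seq library of the series, together with the open chromatin and Cdx2 binding measured at their locus. They were chosen by gene symbol and make up 9 of the 19919 genes listed in both RNA-seq tables of mouse embryonic stem cells (mESCs). The series compares mouse Cdx2 (mCdx2) with rat Cdx2 (rCdx2), each expressed as a Flag-tagged, doxycycline-inducible lentiviral transgene in stable lines of mESCs and of RMES cells, which are fusions of a haploid mouse and a haploid rat embryonic stem cell. RNA-seq of mESCs covered 10 conditions with 2 libraries each: WT, mCdx2-OE, rCdx2-OE and 7 mutants of rCdx2 named R1, R2, R3, R12, R13, R23 and R123. The mutants carry rat-to-mouse changes in the DNA-binding domain, namely a tyrosine to phenylalanine (change 1), an alanine to serine (change 2) and the deletion of an asparagine (change 3), with the digits of the name giving the changes made. R123 therefore carries all 3 changes. RNA-seq of RMES cells covered 2 WT libraries, 1 of mCdx2-OE and 1 of rCdx2-OE, each split into a mouse and a rat table. ATAC-seq covered 1 WT and 1 mCdx2-OE library of mESCs, and anti-Flag ChIP-seq covered 1 library of each Cdx2 in mESCs and in RMES cells.

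All these cells were kept under the culture conditions of pluripotent stem cells, with LIF and inhibitors of MEK and GSK3. The study describes its baseline as cells without doxycycline, whereas the labels call it WT, so whether each WT library is an uninduced transgenic line or the parental line cannot be told from them. Whether each line was a single clone is not given in the sources used here. It is also not given whether the 2 libraries of a condition came from separate cultures, so the p-values measure only the spread between these libraries, which may be technical.

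Hox genes encode homeodomain transcription factors that give cells their position along the body axis. Within a cluster they are lined up in the order of the body regions they pattern, and genes at the Hoxd1 side are used earlier and more anteriorly than those at the Hoxd13 side, which pattern the trunk end, the limbs and the external genitalia. Cdx2 is a caudal-type homeodomain factor of the trophoblast, the gut and the posterior embryo, and Hox genes are among its known targets. Pluripotent cells keep Hox clusters under Polycomb repression.

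In mESCs, WT libraries held 74960057 and 94686029 counts and the 18 induced libraries 12698443 to 24315929, so a level near 0 was measured more finely in WT. RMES libraries held 36166038 to 41418817 mouse and 29453412 to 35249756 rat counts. Cdx2 itself checked the labels in mESCs, at 1.21 and 1.36 CPM (the count scaled to the library total) in WT, 67.0 to 127 in the 4 mCdx2-OE and rCdx2-OE libraries and 37.2 to 147 in the 14 mutant libraries. It did not set WT apart in RMES cells. Mouse-table Cdx2 was 129 and 127 CPM in the libraries labelled WT, 968 in mCdx2-OE and 4.45 in rCdx2-OE, and rat-table Cdx2 was 453 and 440 in WT, 47.2 in mCdx2-OE and 880 in rCdx2-OE. Each induced RMES library was thus high for the Cdx2 of its own transgene, while both WT libraries expressed both.

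The 9 genes lie on the plus strand of mouse chromosome 2 (GRCm38, positions from GENCODE M21). Hoxd13 (74668310 to 74671599) is at the centromeric end and is followed by Hoxd12 (74675013 to 74677705), Hoxd11 (74679557 to 74687016), Hoxd10 (74691924 to 74695105), Hoxd9 (74697727 to 74700208), Hoxd8 (74704615 to 74707933), Hoxd4 (74711929 to 74729160), Hoxd3 (74711927 to 74748442) and Hoxd1 (74762980 to 74765142). The longest transcripts of Hoxd3 and Hoxd4 begin at almost the same base, and another Hoxd4 transcript starts at 74721978. Hoxd3 and Hoxd4 share 388 exon bases on the same strand, 9.26% of the exon length of Hoxd3 and 13.2% of that of Hoxd4, and reads in these bases cannot be assigned to either gene alone.

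Cdx2 binding was strongest at the inner start of Hoxd4. Of 91665 Cdx2 ChIP-seq peaks in mESCs, 8 lay within 10 kb of the 97 kb span of the genes. The peak over the Hoxd4 start at 74721978 (chr2:74721754-74722170) held 201 reads with mCdx2 and 173 with rCdx2 and ranked 3979 of the 91665 peaks by reads scaled to equal totals. A peak just upstream of it (chr2:74721134-74721464) held 132 and 119 reads and ranked 9182. The next, between Hoxd9 and Hoxd8 (chr2:74700954-74701473), held 85 and 72 reads and ranked 20912. The other 5 peaks lay in Hoxd11, at the outer start of Hoxd3 and Hoxd4, at a pair of sites inside Hoxd3 and beyond Hoxd1, with 21 to 81 reads in a library.

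The motif TTTATNG, a form of the Cdx recognition sequence, and TTTACGA were searched on both strands in the central 200 bases of each peak. TTTATNG was present in 45.4% and TTTACGA in 1.30% of all 91665 peaks, and 1 or the other in 46.1%. Of the 8 peaks at the locus, 7 held at least 1 of them, the exception being the peak at the outer start of Hoxd3. The strongest peaks and that exception are shown outside protein-coding exons, on the plus strand of GRCm38 and with the motif letters of either strand in capitals.
Hoxd4 start peak, chr2:74721754-74721977: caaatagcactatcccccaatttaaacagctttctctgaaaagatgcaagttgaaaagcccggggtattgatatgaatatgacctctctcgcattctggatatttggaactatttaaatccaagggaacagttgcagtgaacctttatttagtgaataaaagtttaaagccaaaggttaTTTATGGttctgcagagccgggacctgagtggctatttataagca
Hoxd4 upstream peak, chr2:74721150-74721449: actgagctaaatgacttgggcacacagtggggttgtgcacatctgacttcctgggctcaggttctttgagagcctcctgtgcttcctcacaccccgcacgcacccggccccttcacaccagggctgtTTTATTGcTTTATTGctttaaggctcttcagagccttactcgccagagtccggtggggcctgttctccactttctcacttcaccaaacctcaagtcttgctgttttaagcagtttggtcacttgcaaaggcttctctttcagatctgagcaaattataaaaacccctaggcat
Between Hoxd9 and Hoxd8, chr2:74701064-74701363: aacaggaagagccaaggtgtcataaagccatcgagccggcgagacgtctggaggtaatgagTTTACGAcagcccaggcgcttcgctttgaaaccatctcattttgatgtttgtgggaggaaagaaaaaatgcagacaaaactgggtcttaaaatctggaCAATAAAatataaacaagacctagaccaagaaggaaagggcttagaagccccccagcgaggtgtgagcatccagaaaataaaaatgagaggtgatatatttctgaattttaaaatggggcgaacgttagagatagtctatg
Outer start of Hoxd3, chr2:74711670-74711926: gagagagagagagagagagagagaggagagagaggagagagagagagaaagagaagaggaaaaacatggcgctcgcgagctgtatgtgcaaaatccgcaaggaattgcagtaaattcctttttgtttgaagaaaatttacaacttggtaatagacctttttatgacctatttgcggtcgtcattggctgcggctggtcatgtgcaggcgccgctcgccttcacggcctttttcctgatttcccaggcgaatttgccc

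The Hoxd4 start peak held 4 TTTATNG matches in its central window, of which 1 lies in the stretch shown, and the upstream peak held 2 that stand almost side by side. The peak between Hoxd9 and Hoxd8 held 1 match of each motif. In the 300-base promoters of RefSeq (GRCm38), 10.9% of 32851 held TTTATNG and 0.597% TTTACGA. Of the 10 promoters listed for the 9 genes, that of Hoxd4 held 3 TTTATNG matches, 1 of the pair listed for Hoxd11 held 1 TTTACGA match, and the other 8 held neither. A match is a run of letters and not a measured site. The stretch at the outer start of Hoxd3 holds tttatga, which departs from TTTATNG in its last letter only. The lack of a match thus does not show the lack of a Cdx site.

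Mouse and rat Cdx2 gave similar read counts at the locus. Scaled to equal totals, none of the 8 peaks differed by over 2-fold between mCdx2 and rCdx2, against 0.452% of all peaks over 2-fold higher and 0.46% over 2-fold lower with mCdx2. The ratio of mCdx2 to rCdx2 at the Hoxd4 start was 1.04 (95% exact interval 0.841 to 1.28) and 0.989 (0.766 to 1.28) at the upstream peak. The widest departure was 1.87 (1.1 to 3.26) at the peak in Hoxd11, with 46 and 22 reads. Each Cdx2 had 1 library, so no test between them was possible, and these intervals cover counting error only. The columns of the ChIP-seq tables were assigned to mCdx2 and rCdx2 from abbreviations in their names.

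In RMES cells, 5 Cdx2 peaks lay at the mouse locus, of 74650 on the mouse genome. Those at the Hoxd4 start (chr2:74721824-74722132), upstream of it (chr2:74721108-74721437), at the outer start of Hoxd3 and beyond Hoxd1 overlapped mESC peaks. The peak in Hoxd11 (chr2:74683184-74683387) overlapped no mESC peak. The mESC peak in Hoxd11 lay at chr2:74685264-74685555. The 5 peaks held 19 to 91 reads in a library. None differed by over 2-fold between mCdx2 and rCdx2, against 0.977% of all peaks higher and 1.11% lower with mCdx2. The lowest ratio was 0.786 (0.581 to 1.06), upstream of Hoxd4, and the highest 1.34 (0.939 to 1.93), beyond Hoxd1.

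Chromatin at the Hoxd4 start opened with mCdx2. The ATAC-seq peak that spans both Hoxd4 ChIP-seq peaks (chr2:74720996-74722152) held 10 reads in WT and 153 in mCdx2-OE mESCs, 10.5-fold more after scaling to equal totals with 1 read added (interval of the plain ratio 5.98 to 24.0). Of 28 ATAC-seq peaks at the locus, 20 reached 40 scaled reads, and 4 of these were over 2-fold more open against 13.7% of the 85394 peaks tested genome-wide. Without scaling, 11 of the 20 were over 2-fold higher in mCdx2-OE, whose library was the deeper, with 8277850 reads in peaks against 6109353. The start of Hoxd1 (chr2:74762672-74763640) held 29 and 122 reads, 3.05-fold more (2.06 to 4.83), a site inside Hoxd3 (chr2:74740416-74741066) 11 and 43 reads, 2.75-fold more (1.46 to 6.20), and the outer start of Hoxd3 and Hoxd4 (chr2:74711746-74712582) 41 and 113 reads, 2.01-fold more (1.41 to 2.98).

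All 4 of these lie at the Hoxd1 to Hoxd4 side of the cluster, but that depends on the 2-fold limit. The start of Hoxd8 fell just short of it at 1.97-fold (1.44 to 2.76). The starts of Hoxd11 and Hoxd13 were at 1.82 (1.36 to 2.49) and 1.62 (1.20 to 2.23), and those of Hoxd10 and Hoxd12 at 1.22 (0.936 to 1.59) and 0.533 (0.335 to 0.816). A single peak, next to Hoxd12 (chr2:74672569-74673221), was over 2-fold less open, with 57 and 36 reads and a ratio of 0.474 (0.298 to 0.720), where 20.5% of all tested peaks were less open. The 20 peaks had a median log2 ratio of 0.66, where the median of all tested peaks was -0.13. Of the 20, 3 overlapped a Cdx2 peak in mESCs, at the inner Hoxd4 start, at the outer start of Hoxd3 and between Hoxd9 and Hoxd8, and 2 of these 3 were among the 4 that opened. The promoter of Hoxd1 opened without a called Cdx2 peak and holds neither motif, and its bases before the gene are shown as the opened start without Cdx2 (plus strand, GRCm38, from RefSeq).
Hoxd1 promoter, chr2:74762730-74762979: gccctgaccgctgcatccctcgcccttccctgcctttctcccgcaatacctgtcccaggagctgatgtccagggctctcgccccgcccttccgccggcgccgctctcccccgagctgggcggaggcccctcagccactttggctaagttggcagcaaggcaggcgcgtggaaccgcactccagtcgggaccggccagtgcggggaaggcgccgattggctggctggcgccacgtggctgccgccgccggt
Each condition had 1 ATAC-seq library, so these are differences between libraries with counting error only.

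All 8 Hoxd genes that passed the filter on low counts rose in mESCs with mCdx2 and with rCdx2, and Hoxd4 rose most in level. With edgeR's quasi-likelihood test and p-values adjusted by Benjamini-Hochberg, 8 of 8 were called higher than WT (adjusted p under 0.05 and over 2-fold) with either Cdx2, where 18.4% of the 16000 genes tested were called higher with mCdx2 and 19.0% with rCdx2. Hoxd12 was too low to be tested. In WT every tested Hoxd gene but Hoxd13 stood at or below 0.297 CPM, and these genes passed the count filter through the induced libraries. They could hardly be called anything but higher or unchanged, so the share of Hoxd genes called is in large part set by the filter. The median log2 fold change of the 8 genes with mCdx2 was 4.5, against -0.03 over all genes.

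Hoxd4, an anterior-group gene of the hindbrain and cervical region, was nearly silent in WT, with 3 and 2 counts. It reached 220 and 178 counts in mCdx2-OE and 246 and 158 in rCdx2-OE, or 10.4 ± 1.68 and 10.5 ± 1.5 CPM (SD, n = 2), against 0.0327 ± 0.0139 in WT. The 4 induced libraries lay far above both WT libraries, with a ratio of pooled counts of 320 (136 to 992) for mCdx2 and 322 (137 to 998) for rCdx2. The log2 fold changes were 8.13 ± 0.33 (SE, adjusted p = 5.4e-12) and 8.14 ± 0.33 (adjusted p = 4.94e-12).

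Hoxd3, its neighbour and partner in patterning the upper vertebral column, had 0 and 1 counts in WT, 26 in each mCdx2-OE library and 25 and 22 in rCdx2-OE. Its pooled ratio was 209 for mCdx2 and 187 for rCdx2, but the denominator is 1 count and the intervals run from 35.9 to 8423 and from 32.0 to 7559. Hoxd1, at the telomeric end of the cluster, had 4 and 14 counts in WT, 18 and 9 in mCdx2-OE and 23 and 17 in rCdx2-OE. In CPM these were 0.108 ± 0.0730, 0.669 ± 0.118 and 1.07 ± 0.256 (SD, n = 2), with all 4 induced libraries above WT. Its rise with mCdx2 (log2 2.54 ± 0.72, adjusted p = 0.00499) was the smallest fitted and was lost without replicate 1 of mCdx2-OE (log2 2.33, adjusted p = 0.0631).

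The central genes Hoxd8 and Hoxd9, of the trunk group, started from a measurable level. Hoxd8 had 13 and 12 counts in WT, 92 and 59 in mCdx2-OE and 118 and 43 in rCdx2-OE, and its pooled ratio was 24.3 (15.9 to 38.8) with mCdx2 and 25.7 (16.8 to 40.9) with rCdx2. Hoxd9 had 13 and 26 counts in WT, 114 and 97 in mCdx2-OE and 118 and 54 in rCdx2-OE, with ratios of 21.8 (15.4 to 31.5) and 17.6 (12.4 to 25.6). For both genes all 4 libraries were above WT in CPM. Their log2 fold changes with mCdx2 were 4.55 ± 0.25 (adjusted p = 1.64e-10) and 4.45 ± 0.33 (adjusted p = 5.41e-09).

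Of the posterior genes, which pattern the limb, the tail and the genital region, Hoxd13 was the highest Hoxd gene per kilobase in WT and changed least in ratio beside Hoxd1. Its WT counts were 45 and 55, or 0.633 ± 0.00682 CPM, against 79 in each mCdx2-OE library (4.22 ± 1.30 CPM) and 65 and 61 in rCdx2-OE (3.49 ± 1.40 CPM). The pooled ratios were 6.36 (4.92 to 8.25) and 5.03 (3.83 to 6.60). Hoxd11 went from 8 and 3 counts in WT to 18 and 29 in mCdx2-OE and 17 and 13 in rCdx2-OE, with ratios of 17.2 (8.79 to 36.8) and 10.9 (5.30 to 24.1).

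Hoxd10 had 1 and 0 counts in WT, 13 and 17 in mCdx2-OE and 4 and 11 in rCdx2-OE, and its ratio of 121 with mCdx2 rests on 1 WT count (20.1 to 4926). Hoxd12 had no count in WT, 4 and 2 in mCdx2-OE and 2 and 3 in rCdx2-OE. Against a floor of 3 counts over the pair of WT libraries, the ratio of Hoxd12 was 8.05 with mCdx2 and 6.65 with rCdx2. These have no interval and leave out the counting error of its few induced counts, so they are not lower bounds. In each of the 8 tested genes the 4 mCdx2-OE and rCdx2-OE libraries lay above both WT libraries, which 38.2% of all tested genes did.

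**Figure D1:**
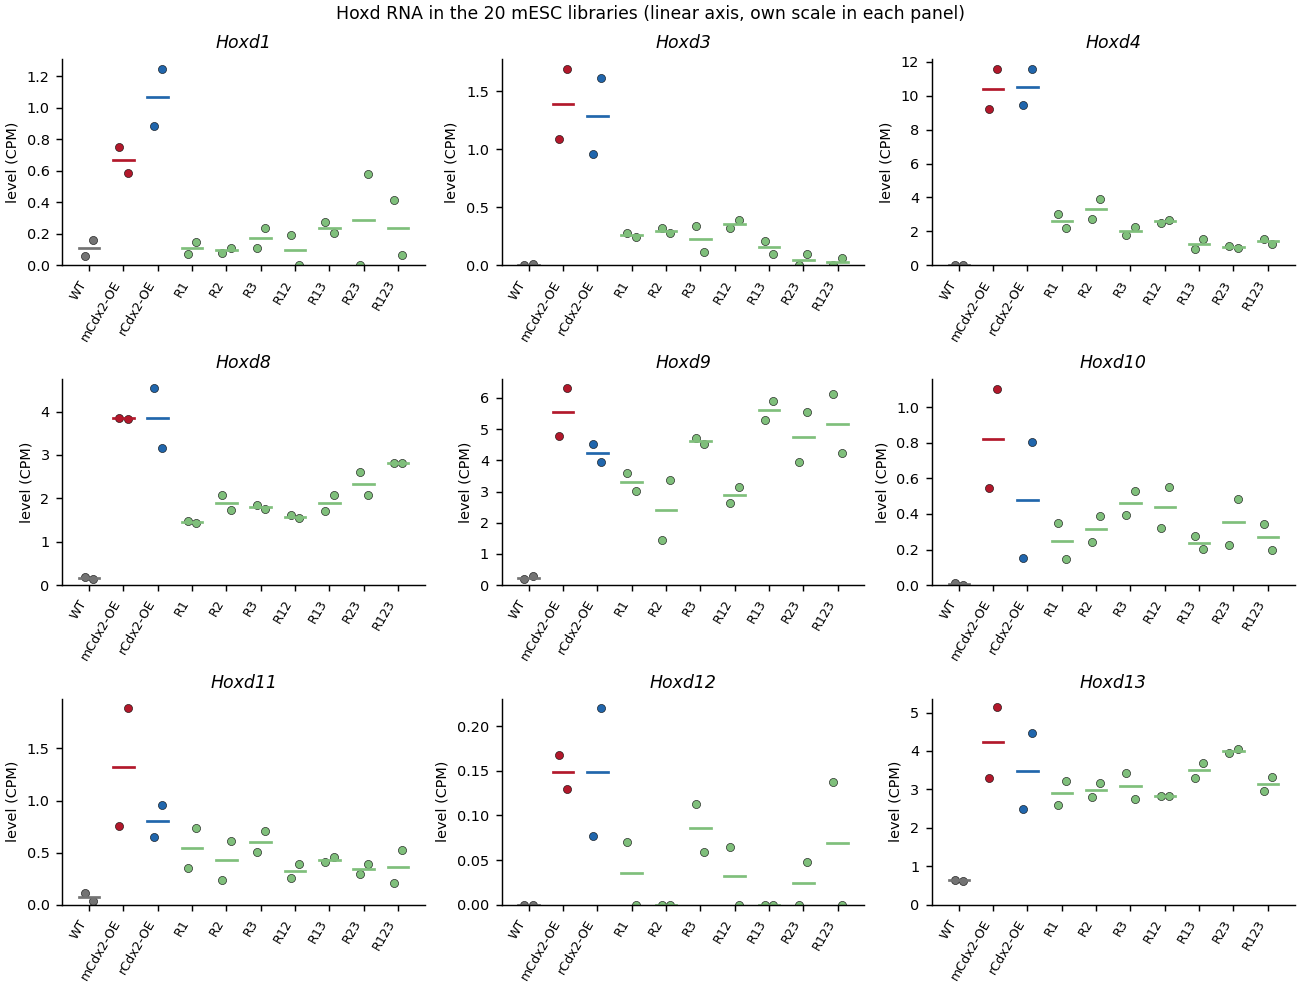
Level of each Hoxd gene (CPM, own scale in each panel) in the 20 mESC RNA-seq libraries by condition, 1 point a library. Hoxd4 stands at 9.20 to 11.6 CPM with mCdx2 and rCdx2, at 0.962 to 3.94 in the mutants and at 0.0228 and 0.0425 in WT, while Hoxd9 and Hoxd13 in the mutants overlap the intact proteins.

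Per kilobase of exon, the order of the genes changed on induction. In WT it ran from Hoxd13 (0.255 CPM per kb) to Hoxd9 (0.113), then Hoxd8 (0.0585) and Hoxd1 (0.0582), which overlapped, with Hoxd11, Hoxd4, Hoxd10, Hoxd3 and Hoxd12 below them. In mCdx2-OE, Hoxd4 came first (3.52 CPM per kb), ahead of Hoxd9 (2.59), Hoxd13 (1.70) and Hoxd8 (1.40), and the libraries of Hoxd13 and Hoxd8 overlapped. Hoxd10, Hoxd1, Hoxd3 and Hoxd11 followed at 0.313 to 0.454 CPM per kb, each overlapping the next, and Hoxd12 was last at 0.0587. With rCdx2, Hoxd4 (3.57), Hoxd9 (1.99), Hoxd13 (1.40) and Hoxd8 (1.40) led in the same order.

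No Hoxd gene was called different between mCdx2 and rCdx2 in mESCs. In edgeR's quasi-likelihood test, 0 of 8 passed an adjusted p of 0.05, as did 3 of all 16000 genes (0.0188%), while 857 genes had an unadjusted p under 0.05. DESeq2 called 0 Hoxd genes and 21 genes in all. The log2 difference, mCdx2 minus rCdx2, was -0.02 ± 0.20 (SE) for Hoxd4, -0.03 ± 0.20 for Hoxd8, 0.14 ± 0.42 for Hoxd3 and 0.35 ± 0.27 for Hoxd9. The errors were wider for Hoxd10 (0.96 ± 0.64), Hoxd11 (0.70 ± 0.52) and Hoxd1 (-0.60 ± 0.65), and a difference of that size could not be detected at these counts.

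The 7 mutants of rCdx2 also raised most Hoxd genes above WT. Over 8 genes and 7 mutants, 47 of 56 comparisons were called higher and none lower, where the share of all genes called higher was 10.1% for R1, 10.6% for R2 and R12, 12.2% for R3, 13.6% for R13, 13.8% for R23 and 14% for R123. Hoxd4, Hoxd8, Hoxd9, Hoxd10, Hoxd11 and Hoxd13 were called in each of the 7, with log2 fold changes of 4.84 to 6.52 for Hoxd4 and 2.15 to 2.65 for Hoxd13. In these 6 genes all 18 induced libraries lay above both WT libraries, which 21.7% of all tested genes did. Hoxd3 was called in 5 mutants and missed the threshold in R23 and R123, and Hoxd1 was called in none of the 7, with log2 values from -0.30 to 1.55.

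The mutants fell short of the intact proteins from Hoxd1 to Hoxd8 and overlapped their range from Hoxd9 to Hoxd13. The split was not clean, as Hoxd11 overlapped only near the edge (0.206 to 0.741 CPM in the mutants and 0.654 to 1.89 with the intact proteins). Against rCdx2-OE, 26 of 56 comparisons were called lower and none higher, where the share of all genes called lower was 23.7% for R1, 22.6% for R2, 22.8% for R3, 23.2% for R12, 23.5% for R13 and R23 and 24.1% for R123. The 26 fell to 16 without replicate 1 of the mutants and to 15 without replicate 2. Hoxd3 and Hoxd4 were lower in 7 of 7 mutants, Hoxd1 in 6 (not in R23) and Hoxd8 in 6 (not in R123). Hoxd9, Hoxd10, Hoxd11 and Hoxd13 were called in none, with log2 differences between -1.23 and 0.39. Hoxd1, Hoxd3 and Hoxd10 passed the count filter through the mCdx2-OE and rCdx2-OE libraries, so they could hardly be called higher in the mutants.

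Hoxd4 ranged over the 14 mutant libraries from 0.962 to 3.94 CPM with a median of 2.01, against 9.20, 9.46, 11.6 and 11.6 in the intact libraries, so the groups did not overlap. Hoxd3 ranged from 0 to 0.388 CPM in the mutants and from 0.961 to 1.69 with the intact proteins, Hoxd8 from 1.43 to 2.82 and from 3.15 to 4.54, and Hoxd1 from 0 to 0.580 and from 0.585 to 1.25. In these 4 genes every mutant library was below every intact library, which held for 17.2% of all tested genes. By contrast Hoxd9 ranged from 1.44 to 6.12 CPM (median 4.09) in the mutants and from 3.96 to 6.31 with the intact proteins, and Hoxd13 from 2.61 to 4.06 and from 2.5 to 5.14.

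A comparison of the mean of the 7 mutants with the mean of mCdx2-OE and rCdx2-OE, added after the counts were seen, called 5 Hoxd genes lower and none higher, where 33.4% of all genes were called lower. The log2 differences were -3.03 ± 0.32 (SE) for Hoxd3, -2.45 ± 0.12 for Hoxd4, -2.31 ± 0.46 for Hoxd1, -1.18 ± 0.32 for Hoxd11 and -1.01 ± 0.12 for Hoxd8. Hoxd11 was the least stable, with an adjusted p of 0.109 without replicate 1 of the mutants and 0.0595 without replicate 2 of mCdx2-OE. The genes not called had log2 differences of -0.79 ± 0.40 (Hoxd10, adjusted p = 0.0915), -0.29 ± 0.16 (Hoxd9, adjusted p = 0.12) and -0.22 ± 0.14 (Hoxd13, adjusted p = 0.195). Without replicate 1 of rCdx2-OE, Hoxd10 (log2 -1.29, adjusted p = 0.0106) and Hoxd13 (log2 -0.42, adjusted p = 0.0193) passed as well.

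Cdx2 RNA did not pass the test in the same comparison (log2 -0.26 ± 0.27, adjusted p = 0.422), and its ranges overlapped. Reads of mESCs were aligned to the mouse genome alone, so Cdx2 levels of mouse and rat constructs may not be comparable. The mutants and the intact proteins are separate lines, and a difference between lines and an effect of the changes cannot be told apart there. R123, made from rCdx2 with the mouse state at all 3 changes, held 1.58 and 1.24 CPM of Hoxd4, and mCdx2-OE held 9.20 and 11.6. The cause of that difference was not tested. In the mutants the per-kilobase order was led by Hoxd9 (1.92 CPM per kb) and Hoxd13 (1.29), which overlapped, ahead of Hoxd8 (0.718) and Hoxd4 (0.693).

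**Figure D2:**
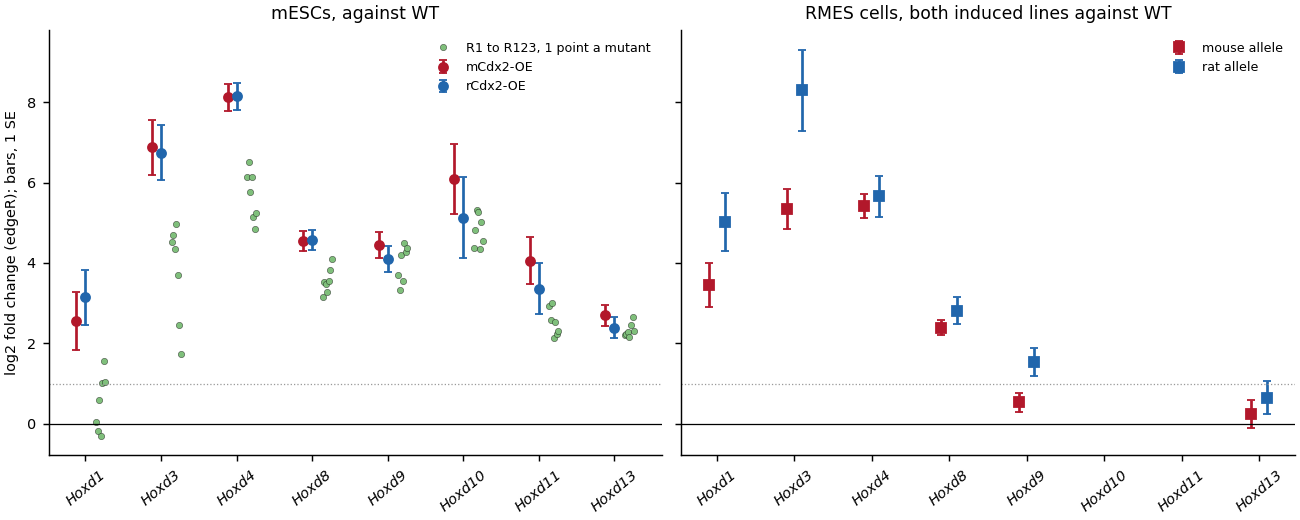
Log2 fold change against WT (edgeR, bars are SE) of the 8 tested Hoxd genes in the mESC conditions, in their order along the cluster. For Hoxd4 the intact proteins stand at 8.13 and 8.14 and the 7 mutants between 4.84 and 6.52, while for Hoxd13 the mutants (2.15 to 2.65) stand close to the intact proteins (2.7 and 2.39).

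Among the mutants, lines with change 3, the asparagine deletion, had lower Hoxd3 and Hoxd4 and higher Hoxd9 than lines without it. In an additive model over rCdx2-OE and the 7 mutants (16 libraries), the term for change 3 was called lower for Hoxd4 (log2 -1.58 ± 0.27, adjusted p = 0.000264) and Hoxd3 (log2 -2.14 ± 0.45, adjusted p = 0.00144) and higher for Hoxd9 (log2 0.65 ± 0.17, adjusted p = 0.00587). These are 3 of 7 Hoxd genes tested where 36.6% of all genes were called, so the share among the Hoxd genes was near that over all genes. Each mutant is a line of its own, and an effect of the change and a difference between lines cannot be told apart. Changes 1 and 2 called none of the 7, and 0 of 15114 genes in all (0.0%), with 1995 and 1569 genes at an unadjusted p under 0.05. The joint interaction of the changes was called for Hoxd4 (adjusted p = 0.0014, edgeR's quasi-likelihood test) and for 28.9% of all genes. Additive terms do not describe such genes well. The change 3 term of Hoxd4 and the lack of calls for changes 1 and 2 hold within that limit.

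Hoxd9 in the 8 mutant libraries with change 3 ran from 3.94 to 6.12 CPM with a median of 5.01, and in the 6 without it from 1.44 to 3.59 with a median of 3.09. These ranges did not overlap, as for 9.51% of all genes in that direction. Hoxd9 in rCdx2-OE, which also lacks change 3, was 3.96 to 4.54 CPM, within the range of the mutants with change 3. Hoxd4 ran from 0.962 to 2.23 CPM (median 1.40) with change 3 and from 2.22 to 3.94 (median 2.69) without it, touching at the edge. The same order stood within each replicate. In replicate 1 Hoxd4 was 0.962 to 1.80 with and 2.51 to 3.03 without change 3, and in replicate 2 it was 1.02 to 2.23 with and 2.22 to 3.94 without.

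Cdx2 RNA moved with the same change. It was 37.2 to 94.4 CPM with change 3 and 60.6 to 147 without it in the mutants, and it also differed by replicate: 62.0 to 94.4 against 145 to 147 in replicate 1, and 37.2 to 44.3 against 60.6 to 68.8 in replicate 2. Its log2 difference for change 3 was -0.74 ± 0.26 (adjusted p = 0.0367), and its part in the Hoxd differences was not tested. Across the 18 induced libraries, which come from 2 tables and from 12698443 to 24315929 counts each, Pearson's r with Cdx2 was 0.38 for Hoxd4, 0.41 for Hoxd3 and -0.44 for Hoxd9, as a description.

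In a model over the mutants alone, added after the counts were seen, the term for change 3 was again lower for Hoxd4 (log2 -1.08, adjusted p = 8.3e-05) and higher for Hoxd9 (log2 0.82, adjusted p = 0.000149), and it was higher for Hoxd8 (log2 0.50, adjusted p = 0.00568), where 51.8% of all genes were called. Hoxd3 was too low for that model. Leaving out either replicate of all conditions ended every Hoxd call for change 3, with adjusted p of 0.0536 and 0.0561 for Hoxd4 at log2 values of -1.58 and -1.56, 0.065 and 0.149 for Hoxd3 (log2 -2.48 and -1.84) and 0.0845 and 0.143 for Hoxd9 (log2 0.59 and 0.74).

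**Figure D3:**
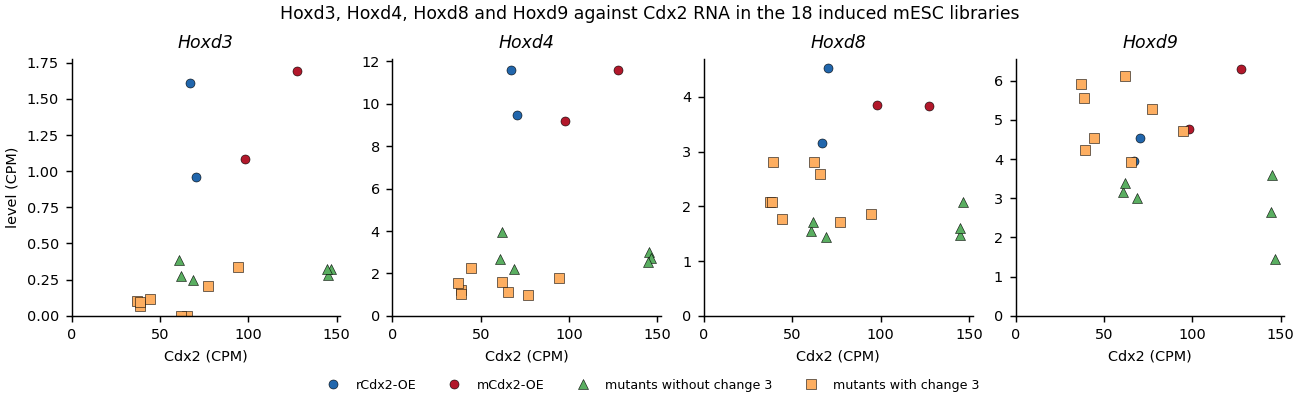
Levels of Hoxd3, Hoxd4, Hoxd8 and Hoxd9 against Cdx2 RNA (both in CPM, linear axes) in the 18 induced mESC libraries, 1 point a library. Mutants with change 3 lie at lower Cdx2 RNA (37.2 to 94.4 CPM) than those without it (60.6 to 147), with lower Hoxd4 and higher Hoxd9.

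The long noncoding RNAs of the cluster moved as well. Hoxd3os1, transcribed from the opposite strand across Hoxd8 and Hoxd3, had no count in WT, 18 and 5 in mCdx2-OE and 14 and 3 in rCdx2-OE, and was called higher with both (log2 6.75 ± 1.06 and 6.30 ± 1.13). Haglr, on the opposite strand between Hoxd3 and Hoxd1, was called higher too (log2 2.8 ± 0.76 and 3.66 ± 0.67) at 1 and 6 counts in WT and 6 to 14 in the 4 induced libraries. Outside the cluster, Mtx2 and Hnrnpa3 were not called against WT, Lnpk was at log2 0.97 with mCdx2 and 0.83 with rCdx2, and Atp5g3 fell by 1.32 and 1.41 on the log2 scale. For Hnrnpa3 the WT libraries stood far apart, at 381 and 2047 CPM, so the lack of a call does not show a steady level. Evx2, next to Hoxd13, was too low to be tested.

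The other Hox clusters also rose with mCdx2 in mESCs. Hoxa had 10 of 10 tested genes higher (Hoxa9 at log2 9.41 and Hoxa10 at 6.58 the most), Hoxb 6 of 8 and Hoxc 7 of 9, with none lower, beside 8 of 8 in Hoxd and 18.4% of all genes. In the mutants against the intact proteins, 9 of 10 Hoxa and 6 of 8 Hoxb genes were lower, and Hoxc had 3 of 9 genes higher and 4 lower, where 30.6% of all genes were higher and 33.4% lower. The Hoxc shares were thus near those over all genes. The TALE cofactors that bind DNA with Hox proteins had 5 of 9 genes higher with mCdx2, Meis1 and Meis3 first. Of 13 upstream regulators tested, 4 were higher (Cdx2 and Rarb first) and 4 lower (T and Wnt3a first). Cdx2 is the transgene itself, so its call was set by the design. Over all genes, 18.4% were higher and 15.0% lower.

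Markers of other cells moved with the conditions. The summed level of 6 pluripotency markers was 3380 to 3398 CPM in WT, 2167 to 2405 with the intact proteins and 2662 to 3436 in the mutants. The sum of 8 trophoblast markers, Cdx2 included, was 160 to 162, 687 to 836 and 196 to 424 CPM, that of 5 limb mesenchyme markers 3.74 to 4.12, 18.2 to 22.6 and 5.04 to 7.29, and that of 8 posterior neuromesodermal markers 70.6 to 72.2, 26.6 to 35.9 and 14.6 to 25.2. Fibroblast markers, which feeder cells would carry, were highest in WT (34.6 to 35.0 CPM against 1.28 to 4.46 in the induced libraries, with Lum at 0 there). Members of a list did not all move with its sum. With rCdx2, 5 of 7 tested trophoblast markers were called higher (Cdx2, the transgene itself, and Krt18 first) and 1 lower (Eomes). Over all genes 19.0% were higher and 15.4% lower. Msx2 held most of the limb sum, at 2.59 to 2.73 CPM in WT and 15.5 to 17.6 with the intact proteins. Prrx1, of the same list, was at 0.354 to 0.457 and 0 to 0.147 CPM. The part of these cells in the Hoxd levels was not tested, and more cells with a Hoxd gene and more RNA per cell cannot be told apart in bulk RNA.

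In RMES cells the anterior Hoxd genes rose on both alleles. With mCdx2-OE and rCdx2-OE as the pair of induced libraries against the 2 WT libraries, 4 of 6 tested genes were called higher on the mouse allele and 5 of 6 on the rat allele, where 28.3% of all genes were called higher on each. None was lower. Mouse Hoxd1 and Hoxd3 and rat Hoxd1, Hoxd3 and Hoxd4 had few or no counts in WT and passed the count filter through the induced libraries. They could hardly be called anything but higher or unchanged. The shares of Hoxd genes called, and the lack of overlap with WT in these genes, are thus in part set by the filter. These contrasts set libraries with a transgene against WT libraries that already expressed Cdx2, as given above, and each allele table was scaled on its own.

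Hoxd4 had 9 and 14 mouse counts in WT, 484 in mCdx2-OE and 736 in rCdx2-OE, a ratio of 43.2 (28.7 to 68.5). On the rat allele it had 1 and 2 in WT, 85 and 130 in the induced libraries, a ratio of 54.2 (18.3 to 265). The log2 fold changes were 5.42 ± 0.29 (SE, adjusted p = 2.98e-09) and 5.66 ± 0.51 (adjusted p = 5.38e-08). On neither allele did WT and induced libraries overlap, and 47.9% of all genes in the mouse and 48.3% in the rat table had both induced libraries above both WT libraries.

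Hoxd3 had 2 and 1 mouse counts in WT and 73 and 88 in mCdx2-OE and rCdx2-OE, a ratio of 43.8 (14.7 to 214). It had 0 and 0 rat counts against 34 and 55. Over a floor of 3 counts for the pair of WT libraries the rat ratio was 22.4, without an interval. Hoxd1 had 6 and 3 mouse counts against 40 and 84 (ratio 11.2, 5.73 to 25.1) and 2 and 0 rat counts against 33 and 62 (ratio 35.9, 9.68 to 301). Hoxd8 had 46 and 61 mouse counts against 308 and 382 (ratio 5.26, 4.28 to 6.51) and 8 and 13 rat counts against 87 and 110 (ratio 7.10, 4.52 to 11.7). In each of these 3 genes the rCdx2-OE library held more counts than the mCdx2-OE library on both alleles, and with 1 library each the difference has no test.

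Of the genes beyond Hoxd8, only Hoxd9 and Hoxd13 could be tested. Hoxd9 had 58 and 53 mouse counts in WT and 98 and 99 in the induced libraries (log2 0.53 ± 0.23, adjusted p = 0.0478, under the 2-fold limit), and 12 and 20 rat counts against 54 and 69 (log2 1.54 ± 0.34, adjusted p = 0.000634). Hoxd13 had 19 and 29 mouse counts against 30 and 40 and 14 and 13 rat counts against 34 and 22, and was called on neither allele (log2 0.25 ± 0.35 and 0.65 ± 0.41). Hoxd10, Hoxd11 and Hoxd12 were too low to be tested. Mouse Hoxd10 had 0 and 2 counts in WT, 12 in mCdx2-OE and 3 in rCdx2-OE, rat Hoxd10 had 0 and 1 in WT and 6 and 4 in the induced libraries, and rat Hoxd12 had no count in any library.

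In induced RMES cells Hoxd4 led on the mouse allele (4.94 CPM per kb), ahead of Hoxd8 (3.00) and Hoxd9 (1.1), while Hoxd8 led on the rat allele (3.13), ahead of Hoxd4 (1.05) and Hoxd9 (0.901), which overlapped. Gene lengths come from each species' own annotation.

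The responses of the mouse and rat alleles were compared in a fit over both alleles with the library as a block. Hoxd9 was the 1 gene of 6 tested that passed, and its mouse minus rat difference in log2 fold change was -1.02 ± 0.43 (adjusted p = 0.0426), where 62.1% of all genes were called, a larger share than among the Hoxd genes. DESeq2 gave -1.03 with an adjusted p of 0.202, and edgeR gave 0.339 without replicate 1 of WT (log2 -0.61), 0.0503 without mCdx2-OE (log2 -1.19) and 0.189 without rCdx2-OE (log2 -0.86). For Hoxd4 and Hoxd8 the differences were -0.27 ± 0.70 and -0.45 ± 0.39. Those of Hoxd3 (-3.10 ± 2.28) and Hoxd1 (-1.63 ± 1.17) were larger than that of Hoxd9 but had wider errors from their low counts, so genes that did not pass are not shown to respond alike on the alleles. In WT, the mouse allele was above the rat allele for Hoxd4 (log2 2.55 ± 0.71), Hoxd8 (2.03 ± 0.33) and Hoxd9 (1.48 ± 0.34), where 81.7% of all genes were called in either direction. Those are counts over gene models of different length in the 2 species.

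**Figure D4:**
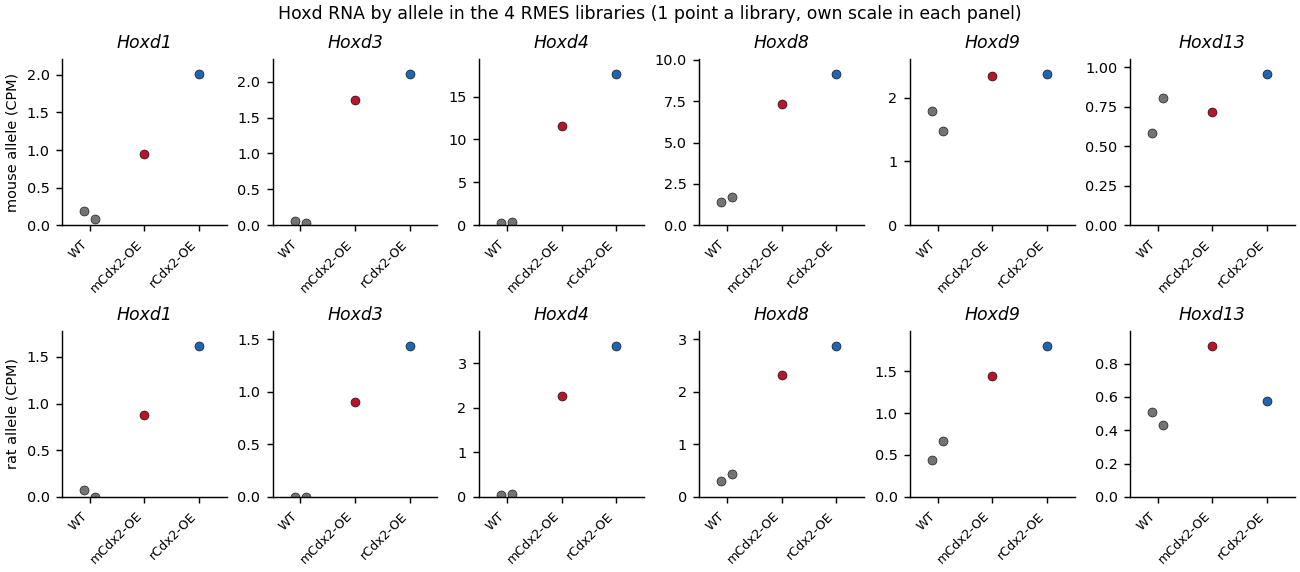
Level (CPM, own scale in each panel) of the 6 Hoxd genes tested in RMES cells, mouse allele above and rat allele below, 1 point a library. For Hoxd1, Hoxd3, Hoxd4 and Hoxd8 both induced libraries stand above both WT libraries on each allele, and Hoxd13 on the mouse allele overlaps.

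On the mouse allele, the other Hox clusters had more genes called lower than higher, where 28.3% of all genes were higher and 16.1% lower. Hoxa had 1 gene higher and 5 lower of 10 tested, Hoxb 1 and 4 of 8, and Hoxc 1 and 5 of 9. Hoxa11 was at log2 -5.03 and Hoxa10 at -4.65. Hoxd had 4 higher and none lower, but its Hoxd1 and Hoxd3 could hardly be called lower from their WT counts. On the rat allele Hoxc had 5 of 7 higher and none lower (Hoxc4 at 3.48), and Hoxb 2 higher and 3 lower of 10, where 28.3% of all genes were higher and 14.2% lower. In the mouse table the pluripotency markers summed to 4435 to 4468 CPM in WT and 1805 to 1848 in the induced libraries, the posterior neuromesodermal markers to 393 to 424 and 20.8 to 25.2, and the trophoblast markers, Cdx2 included, to 299 to 310 and 1027 to 1850. In the rat table the pluripotency sum was 3387 to 3433 in WT and 1082 to 1177 in the induced libraries, with 1 of the 6 markers not listed. Mouse-table fibroblast markers summed to 22.4 to 27.2 and 7.91 to 10.9 and limb mesenchyme markers to 14.4 to 14.7 and 31.9 to 37.9. Here too members did not all move with their sum. Of 7 tested posterior neuromesodermal markers on the mouse allele, 2 were called higher and 4 lower. The part of these cells in the Hoxd levels was not tested.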

How the data were processed

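RNA-seq, ATAC-seq and ChIP-seq values were deposited by the authors as read counts without normalisation, by gene for RNA-seq and by peak otherwise. By their methods, the authors aligned RNA reads with STAR 2.7.0d to mm10 or rn6 and counted them by gene with featureCounts on an Ensembl annotation without pseudogenes; ATAC-seq and ChIP-seq reads were aligned with Bowtie2 2.3.4.3 and peaks were called with MACS2 on reads merged over libraries. The 2 mESC replicates stand in separate tables that list 19919 and 34923 genes, and the 19919 genes in both were used. No per-sample column was left out. Reads shared by near-identical Hox genes are not resolved by such counts. Libraries were assigned to conditions from the labels.

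The 9 genes and the gene lists were chosen with earlier results of these data known. Every Hoxd gene was named. Of other lists, the counts called were given, with at most the 2 highest and 2 lowest log2 fold changes named, and at the locus the 3 Cdx2 peaks with most reads in mESCs were given in full. The genes whose pattern was most like that of the Hoxd genes are not reported here.

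All tests were fitted across all genes with edgeR 4.0.16 (TMM scaling, filterByExpr, quasi-likelihood test, Benjamini-Hochberg adjustment) and limma 3.58.1 in R 4.3.3; the 20 mESC libraries shared 1 fit. A gene was called against WT at an adjusted p under 0.05 and over 2-fold, and in other comparisons at an adjusted p under 0.05. SE is the log2 fold change divided by the square root of F. Ratios of pooled counts used TMM-scaled totals with exact 95% intervals, which cover counting error only. Replicate libraries of each condition differed by more than counting error (chi-square per degree of freedom 6.17 to 44.7 in mESCs and 2.40 to 3.40 in WT RMES cells). Peak counts of a pair of libraries were brought to their average total, 1 was added before logarithms, and ATAC-seq peaks needed 40 scaled reads. The steps were tested on simulated counts. Alternatives were DESeq2 1.42.0, stricter and absent count filters, a replicate block, unscaled peaks and leaving out each library in turn.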

Additional observations from a re-analysis of the deposited data

Results flagged for a closer look

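Hoxd9 drew attention because its response differed between alleles in RMES cells. The mouse minus rat difference in log2 fold change was -1.02, with 58 and 53 mouse counts in WT and 98 and 99 in the induced libraries against 12, 20, 54 and 69 rat counts. It was not called by DESeq2 or with WT replicate 1, mCdx2-OE or rCdx2-OE left out.

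Hoxd4 and Hoxd8 drew attention because the effect of a change in the DNA-binding domain of rCdx2 differed with the other changes present. The joint interaction of changes 1, 2 and 3 had an adjusted p of 0.0014 for Hoxd4 and 0.00103 for Hoxd8 in edgeR's quasi-likelihood test, where 28.9% of 15114 genes were called, about the same share as the 2 of 7 Hoxd genes. In rCdx2-OE, which carries none of the changes, Hoxd4 was 9.46 and 11.6 CPM, and each of the 7 mutants lay at or below 3.94 CPM whether it carried 1, 2 or 3 changes.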

How the results depend on the processing

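The counts of Hoxd genes called were 8 with mCdx2, 8 with rCdx2, 47 and 26 over the mutants against WT and against rCdx2-OE, 5 in the mean of the mutants against the intact proteins, 3 for the changes, 4 and 5 on the mouse and rat alleles of RMES cells and 1 between alleles. With a mean of at least 50 counts required, fewer members were tested and the counts were 3, 3, 21, 8 and 1 in mESCs and 2 and 2 in RMES cells. DESeq2 gave 0 between alleles and moved no other count by over 1.5 times. Leaving out 1 library or replicate gave 7 to 8 with mCdx2, 8 with rCdx2 throughout, 35 to 47 for the mutants against WT and 15 to 23 against rCdx2-OE (16 without replicate 1 and 15 without replicate 2 of the mutants), 4 to 7 for the mean of the mutants, 0 for mCdx2 against rCdx2 and 0 for the changes throughout, 4 and 5 for the alleles throughout, and 0 to 1 between alleles. Without scaling of peak counts, 11 ATAC-seq peaks were over 2-fold more open and 1 ChIP-seq peak in mESCs was over 2-fold different. For single genes, 581 values kept their direction and side of the threshold, 13 became weaker, 3 stronger and 20 changed sign.

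All 20 that changed sign were not called in either form. Between mCdx2 and rCdx2, leaving out a library gave log2 ranges of -0.18 to 0.15 for Hoxd4, -0.24 to 0.51 for Hoxd3, -0.24 to 0.29 for Hoxd8, -0.020 to 2.33 for Hoxd10, -0.11 to 0.73 for Hoxd13 and -0.045 to 1.27 for Hoxd11. For the changes, leaving out a replicate gave -0.12 and 0.27 (Hoxd9, change 1), -2.37 and 0.010 (Hoxd1, change 1), -0.68 and 0.12 (Hoxd1, change 3), -0.085 and 0.088 (Hoxd13, change 2) and -0.064 and 0.19 (Hoxd8, change 3), DESeq2 gave 0.0045 (Hoxd13, change 2) and 0.079 (Hoxd1, change 3), and the mutants alone gave 0.078 and 0.39 (Hoxd8, changes 1 and 2) and 0.053 (Hoxd13, change 2). Hoxd13 between alleles ran from -0.92 to 0.13. The cause was not tested.

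With the replicate number as a block, the counts stayed at 8, 8, 47, 26, 5 and 3. The numbers did not meet the bar for pairing, which was a correlation over 0.1 in every pair: over 45 pairs of conditions, the correlation of the deviations of replicate 1 ran from -0.14 to 0.45 with a median near 0, and 21 were over 0.1. The 2 replicates stand in separate tables, and Cdx2 was higher in replicate 1 than in replicate 2 of each of the 7 mutants. Low counts limit Hoxd3, Hoxd10, Hoxd11 and Hoxd12, where a difference between conditions may be missed.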

Other observations

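Peaks also opened with mCdx2 in the stretches on both sides of the cluster. These include gene deserts that hold long-range control elements of Hoxd genes in the embryo. On the centromeric side, from Atp5g3 to Evx2 (chr2:73911327-74642990), 8 of 18 ATAC-seq peaks with at least 40 scaled reads were over 2-fold more open and 1 less, and 7 of the 8 overlapped 1 of 49 Cdx2 peaks. On the telomeric side, from Mtx2 to Hnrnpa3 (chr2:74878432-75659260), 15 of 32 such peaks were more open and 4 less, and 13 of the 15 overlapped 1 of 51 Cdx2 peaks. Genome-wide 13.7% of the tested peaks were over 2-fold more open and 20.5% less. Overlap with Cdx2 peaks was counted here for the opened peaks only. The centromeric stretch also holds the gene Lnpk, so it is not all gene desert. Cdx2 peaks were about as dense in the cluster (6.85 per 100 kb) as in its flanks (6.70 and 6.53), but the strongest flanking peaks, at chr2:74257252-74258022 and chr2:75138179-75138801, held 867 and 1152 scaled reads over both Cdx2 libraries, against 374 at the Hoxd4 start.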
